A study of Mus musculus with 9 samples.

Results

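The comparison set 3 arrays titled BP against 3 titled Rag1, 6 of the 9 expression arrays in the series, across all 45037 non-control probe sets. The samples were chosen by title alone. Each RNA sample came from the distal small intestine of mice colonized for 10 days by Bacteroides thetaiotaomicron, a common bacterium of the gut. Of 16 equal lengths of intestine, numbers 10, 11, 12 and 14 were combined as whole tissue, so epithelium, immune cells, muscle and nerve were measured together. Both groups carry the source label of Rag1 tissue; the allele, strain, sex and age are not given in the sources used here. The labels leave BP unexplained. The published work on this question gave Rag1-deficient mice IgA from an implanted hybridoma, an antibody-secreting cell line, and the labels do not say whether BP names those mice. Nothing in the labels ties an array to 1 animal, so every p-value below covers the spread between these samples alone. Below, values given "in Rag1", "in BP" and "in wild type" are those of the arrays of that group, in replicate order where 3 are listed. The 3 wild type arrays, from B6 mice colonized in the same way, are used below as a further measure of level and did not enter the test, except in the alternative fit over 9 arrays.

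Rag1 encodes part of the recombinase that assembles antibody and T cell receptor genes, and mice without it make no mature B or T cells. In such mice the gut is guarded by innate means: epithelial cells sense bacterial products, signal through NF-kappaB, and secrete lectins and peptides that act on bacteria, while macrophages take up microbes that cross the lining. IgA, the antibody class carried into the gut lumen, binds bacteria before they reach the epithelium. Genes of these arms are therefore taken first.

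The BP arrays were the least alike of the groups. Across tested probe sets, the median within-group standard deviation of log2 values was 0.21 in Rag1 and 0.44 in BP. The correlation between arrays over the tested probe sets was 0.957 to 0.976 within Rag1, 0.936 between BP replicates 1 and 3, and 0.838 and 0.844 between BP replicate 2 and BP replicates 1 and 3. Beta-actin control probes at the 3' end outshone those at the 5' end by a ratio of 1.53 to 1.77 in Rag1, of 14.2, 2.43 and 20.2 in BP and of 3.25, 1.76 and 4.17 in wild type; shorter RNA raises this actin ratio. Lymphocyte transcripts were near the Rag1 level on BP arrays. The summed normalised intensity of 5 T cell markers was 127 to 144 in Rag1, 108 to 157 in BP and 477 to 509 in wild type. That of 4 B and plasma cell markers, Igha among them, was 124 to 144 in Rag1, 109 to 174 in BP and 3110 to 8990 in wild type.

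Of 27022 probe sets bright enough to be tested, 33 were higher in BP (0.122%) and 150 were lower (0.555%), at an adjusted p under 0.05 in limma with Benjamini-Hochberg adjustment over all of them. The largest rise was that of the acute phase gene Saa3, and the largest fall that of a probe set for Ctnnb1; Tifa, an adaptor of innate signalling, had the largest fall among genes taken at their brightest probe set. With each gene represented by its brightest tested probe set, 20 of 13570 genes were higher (0.147%) and 43 were lower (0.317%). Counts of called list members below use that probe set and leave out calls on dimmer ones. The fit used the 6 arrays compared; with the wild type arrays added to the estimate of spread it gave 298 higher and 729 lower probe sets, for 149 genes (1.1%) and 294 genes (2.17%). The calls depended on single arrays. Without BP replicate 2, 2064 probe sets were higher and 2817 lower. Without BP replicate 1 these were 6 and 8. Leaving out BP replicate 3, Rag1 replicate 1 or Rag1 replicate 2, each alone, gave 0 in both directions, and without Rag1 replicate 3 each was 1. At an unadjusted p under 0.05 limma gave 1330 higher and 2457 lower without BP replicate 3, 860 and 1605 without Rag1 replicate 1, and 913 and 1827 without Rag1 replicate 2. No gene kept its call with each of the 6 arrays left out in turn.

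**Figure D1:**
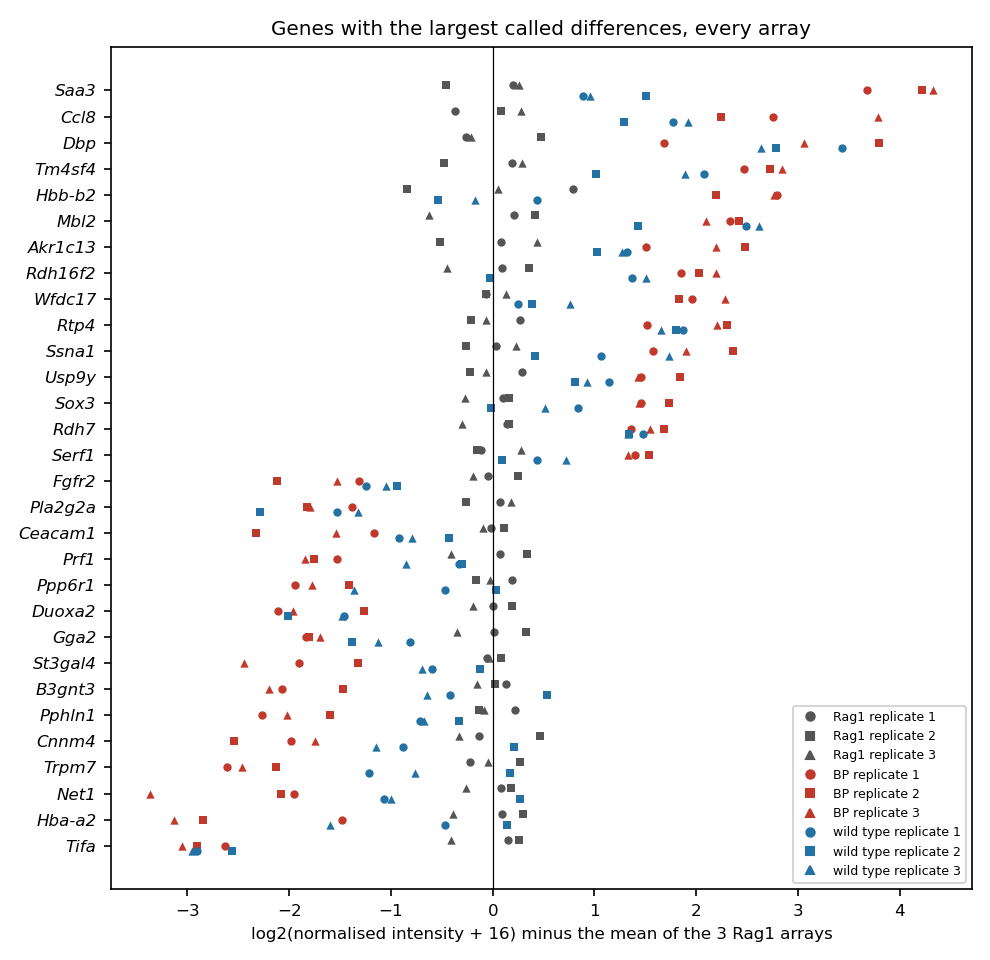
The 15 genes called higher and the 15 called lower with the largest differences, as log2(normalised intensity + 16) on each of 9 arrays minus the mean of the 3 Rag1 arrays (black line). Points are single arrays, coloured by group and shaped by replicate. Every BP array lies beyond every Rag1 array for these genes, as their choice requires. The wild type arrays fall near BP for Tifa and near Rag1 for Wfdc17.

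Saa3 encodes a serum amyloid A protein, made in the acute phase and by macrophages and epithelium in contact with bacteria. Its normalised intensity was 36.5, 17.4 and 38.7 on Rag1 replicates 1, 2 and 3 and 568, 835 and 901 on BP replicates 1, 2 and 3. The groups were far apart, and the wild type arrays, at 68.9 to 114, stood between them but nearer to Rag1. Saa3 rose by 4.07 ± 0.30 in log2 units (± gives the SE throughout, with 3 arrays in each group; adjusted p = 0.00837 in limma), and Saa3 was the only probe set higher on BP at an adjusted p under 0.01. The related genes Saa1 and Saa2 did not pass. Saa1 read 154, 561 and 439 in Rag1 and 586, 20.0 and 62.6 on BP replicates 1, 2 and 3, so BP replicate 1 stayed at the Rag1 level while the other BP arrays lay below it (difference -1.57 ± 0.92, adjusted p = 0.452). For Saa2, BP replicate 1 was again the highest BP array, with 44.8 to 126 in Rag1 and 165, 9.93 and 10.3 in BP (adjusted p = 0.519). Mbl2, a mannose-binding lectin that starts the complement cascade on microbial sugars, read 19.8 to 57.5 in Rag1 and 262, 280 and 219 in BP. It rose by 2.28 ± 0.32 (adjusted p = 0.0293), and the wild type arrays, at 132 to 321, were at the BP level. Of 12 tested acute phase genes, 2 rose and none fell, against 0.147% and 0.317% of all genes; the median difference was 0.15, against -0.016 over all tested genes.

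Ccl8, a chemokine that draws monocytes, read 33, 50.9 and 60.8 in Rag1 and 411, 282 and 855 in BP, with the wild type arrays between them at 138 to 223. It rose by 2.93 ± 0.40 (adjusted p = 0.0293). Ccl8 was the 1 chemokine called among 22 tested, against 0.147% of all genes called higher. The median of the list was -0.096. Wfdc17, a small secreted protein found in activated macrophages, read 49.9, 49.9 and 59.8 in Rag1 and 253, 229 and 320 in BP. It rose by 2.02 ± 0.25 (adjusted p = 0.0241), and the wild type arrays, at 66.0 to 101, were close to Rag1. Among 32 tested macrophage, monocyte and dendritic cell genes none was called on its brightest probe set, though 23 had positive values and the median was 0.28. Over 9 arrays with the actin ratio as a covariate the list's median was -0.064, against -0.15 over all tested genes. In 8 of the 32 all BP arrays lay above all Rag1 arrays, against 10.0% of all genes, and in 1 all lay below, against 13.1%. Fcgr3, an antibody receptor of macrophages, read 49.8 to 73.5 in Rag1 and 161 to 288 in BP (1.47 ± 0.29, adjusted p = 0.0625). C1qb, a chain of complement C1q made by tissue macrophages, read 138 to 169 and 259 to 541 on its brightest probe set (1.16 ± 0.30, adjusted p = 0.105). Of its dimmer probe sets, 1 rose by 1.63 ± 0.28 (adjusted p = 0.0470) and the other had -0.21 (adjusted p = 0.866). Adgre1, the F4/80 antigen, did not separate the groups, at 107 to 146 and 107 to 142. A change in the number of cells of a type and a change in RNA per cell cannot be told apart in whole tissue.

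Tifa carries signals from bacterial sugar metabolites to TRAF6 and NF-kappaB. Its normalised intensity was 2070, 2240 and 1400 on Rag1 replicates 1, 2 and 3 and 289, 235 and 211 on BP replicates 1, 2 and 3. The wild type arrays read 235, 302 and 227, so BP and wild type overlapped and every Rag1 array lay above both. It fell by 2.86 on the log2 scale (SE 0.24, adjusted p = 0.0122). No other gene of the pattern receptor and NF-kappaB list passed on its brightest probe set among 40 tested, while 0.317% of all genes were called lower. But 30 of the 40 had negative values, and in 10 all BP arrays lay below all Rag1 arrays, against 13.1% of all genes. Trib1, a pseudokinase adaptor, read 171 to 231 in Rag1 and 20.7 to 85.3 in BP (-1.85 ± 0.38, adjusted p = 0.0661). The list's median was -0.17, -0.51 and -0.25 on BP replicates 1, 2 and 3, and -0.11 to -0.14 in wild type.

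The promoters of Saa3, Tifa and Reg3g, an antibacterial lectin gene described next, are given because Saa3 and Tifa had the largest rise and the largest fall among genes taken at their brightest probe set, and Reg3g is the antibacterial lectin that passed. Each window runs from 250 bases before to 50 after a RefSeq transcription start (GRCm38.p6), and capitals mark matches on either strand to the C/EBP motif TTGCNNAA or to the NF-kB motif, which do not share letters in these windows. Of 32851 RefSeq promoter windows of this length, 10.8% held the C/EBP motif and 8.46% the NF-kB motif.
Saa3 (chr7:46715627-46715926, minus strand): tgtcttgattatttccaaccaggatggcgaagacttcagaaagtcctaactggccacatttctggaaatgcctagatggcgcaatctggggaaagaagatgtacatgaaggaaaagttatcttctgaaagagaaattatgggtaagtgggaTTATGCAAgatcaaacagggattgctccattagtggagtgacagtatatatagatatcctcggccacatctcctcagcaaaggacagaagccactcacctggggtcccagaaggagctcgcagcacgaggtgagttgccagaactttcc
Tifa (chr3:127789622-127789921, plus strand): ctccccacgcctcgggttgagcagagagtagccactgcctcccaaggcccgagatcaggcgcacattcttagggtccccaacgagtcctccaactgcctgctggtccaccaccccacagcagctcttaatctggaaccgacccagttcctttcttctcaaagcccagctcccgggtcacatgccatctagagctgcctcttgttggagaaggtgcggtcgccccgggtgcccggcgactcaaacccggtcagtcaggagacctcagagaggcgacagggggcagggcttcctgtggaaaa
Tifa (chr3:127790407-127790706, plus strand): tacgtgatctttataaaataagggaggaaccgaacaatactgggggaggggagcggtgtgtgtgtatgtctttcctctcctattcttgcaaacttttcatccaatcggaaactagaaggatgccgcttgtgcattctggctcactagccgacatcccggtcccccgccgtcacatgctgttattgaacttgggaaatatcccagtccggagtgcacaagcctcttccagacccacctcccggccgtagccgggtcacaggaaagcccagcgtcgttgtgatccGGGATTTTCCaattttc
Reg3g (chr6:78468825-78469124, minus strand): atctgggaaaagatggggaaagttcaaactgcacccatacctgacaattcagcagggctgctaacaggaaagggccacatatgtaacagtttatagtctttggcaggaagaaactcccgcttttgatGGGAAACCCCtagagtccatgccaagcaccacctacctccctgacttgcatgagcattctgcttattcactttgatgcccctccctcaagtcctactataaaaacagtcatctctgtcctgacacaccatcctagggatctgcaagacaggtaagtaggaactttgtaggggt
The Saa3 window held 1 C/EBP match, starting 99 bases before the start. The first Tifa window held neither motif, the second held 1 NF-kB match, and the Reg3g window held 1 NF-kB match. These are matches of letters, not measured binding sites.

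Reg3g and Pla2g2a, which encode antibacterial proteins of the epithelium, fell. Reg3g, a C-type lectin that acts on Gram-positive bacteria, read 10300, 12000 and 10700 in Rag1 and 6270, 2670 and 3140 in BP. It fell by 1.55 on the log2 scale (SE 0.28, adjusted p = 0.0499), and the wild type arrays were lower still, at 1480 to 2880. The brightest probe set of Reg3b, its neighbour, read 14500 on every Rag1 array and 9700, 4450 and 6700 in BP (-1.13 ± 0.24, adjusted p = 0.0667). Normalization assigned the Rag1 arrays the same value of this probe set, since it had the same rank on each, and this removed its spread there. The other tested Reg3b probe set had -0.30 (adjusted p = 0.291), with 7260 to 8290 in Rag1 and 5690 to 7260 in BP. Averaged over probe sets, Reg3b did not pass (adjusted p = 0.112). Pla2g2a, a secreted phospholipase of Paneth cells, read 895, 707 and 967 in Rag1 and 315, 228 and 234 in BP. It fell by 1.67 (SE 0.23, adjusted p = 0.0293), with wild type at 161 to 329. Of 15 tested members of this list 2 fell and none rose, against 0.317% and 0.147% of all genes. Negative values were seen for 11, with a median of -0.31. In 7 all BP arrays lay below all Rag1 arrays, against 13.1% of all genes.

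Among enzymes that make nitric oxide and hydrogen peroxide or remove oxidants, Duoxa2 was called. It encodes the factor that matures the peroxide-producing oxidase Duox2, and read 111, 128 and 94.5 in Rag1, 13.3, 36.6 and 16.4 in BP and 15.3 to 30.0 in wild type. It fell by 1.78 (SE 0.30, adjusted p = 0.0453). Nos2, which makes nitric oxide in inflamed tissue, was too dim for the test; it read 41.0 to 52.7 in Rag1, 9.78 to 20.7 in BP and 7.43 to 10.5 in wild type, so all BP arrays lay below all Rag1 arrays. Of 37 tested genes of the list, 1 fell and none rose, against 0.317% and 0.147% of all genes. The median was 0.024, against -0.016 over all tested genes. Over 9 arrays with the actin ratio as a covariate it was -0.16, against -0.15 over all tested genes. A dimmer probe set of the glutathione reductase Gsr fell by 2.71 (SE 0.27, adjusted p = 0.0144), and the brighter 1 did not pass (-1.12, adjusted p = 0.132).

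Among interferon response genes, Oas1a and Irf7 rose and Irf8 fell. Oas1a, a sensor enzyme for double-stranded RNA, read 313 to 466 in Rag1, 851 to 1170 in BP and 1500 to 1900 in wild type, and rose by 1.37 ± 0.23 (adjusted p = 0.0437). Irf7, a transcription factor that amplifies type I interferon, rose by 1.03 ± 0.18 (adjusted p = 0.0453), with 634 to 721 in Rag1 and 1310 to 1570 in BP. Rtp4, an interferon-induced chaperone of receptor transport that is not on the list, read 140 to 202 and 502 to 876 and rose by 2.01 ± 0.28 (adjusted p = 0.0293). Irf8, a transcription factor of myeloid and interferon gamma responses, fell by 1.12 (SE 0.20, adjusted p = 0.0490), with 862 to 1070 in Rag1 and 387 to 468 in BP. Its other tested probe set had -0.29 (adjusted p = 0.741), with 355 to 404 in Rag1 and 205, 277 and 524 in BP. Irf8 did not pass averaged over probe sets (adjusted p = 0.163) or over 9 arrays with the actin ratio as a covariate (-0.75, adjusted p = 0.0900). Of 43 tested interferon genes 2 rose and 1 fell, against 0.147% and 0.317% of all genes. There were 22 positive and 20 negative values, with a median of 0.034. All BP arrays lay above all Rag1 arrays in 9 and below in 6, against 10.0% and 13.1% of all genes. The list's median in wild type was 0.50 to 1.03 above the Rag1 mean.

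Of 24 tested antigen presentation genes, 20 had negative values, the median was -0.35, and per array it was -0.26, -0.35 and -0.30 on BP replicates 1, 2 and 3. In 10 all BP arrays lay below all Rag1 arrays and in 1 all lay above, against 13.1% and 10.0% of all genes. The 1 member called on its brightest probe set was Psmb8, a catalytic subunit of the immunoproteasome, against 0.317% of all genes called lower. Psmb8 read 1230, 1290 and 1040 in Rag1 and 505, 504 and 506 in BP and fell (-1.20 ± 0.19, adjusted p = 0.0349). On the wild type arrays it read 1930 to 2760, above both groups. Cd74, the invariant chain of class II molecules, read 3130 to 3600 in Rag1, 1520 to 2630 in BP and 7520 to 8720 in wild type, and its difference between BP and Rag1 did not pass (-0.76 ± 0.20, adjusted p = 0.123). Perforin, the pore-forming protein of cytotoxic lymphocytes (Prf1), read 62.6 to 116 in Rag1 and 13.2 to 20.3 in BP and fell by 1.71 (SE 0.29, adjusted p = 0.0449). It was the 1 member called among 15 tested genes of cytotoxic and innate lymphoid cells, against 0.317% of all genes called lower.

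Enzymes of detoxification and of retinol handling were among the genes that rose. Akr1c13, an aldo-keto reductase, read 342, 221 and 442 in Rag1 and 944, 1870 and 1530 in BP and rose by 2.06 ± 0.32 (adjusted p = 0.0365). Ces2a, a carboxylesterase of the intestinal lining, read 702 to 912 and 1490 to 2300 and rose by 1.27 ± 0.22 (adjusted p = 0.0455). Gstt3, a glutathione transferase, went the other way, with 441 to 527 in Rag1 and 144 to 205 in BP (-1.40 ± 0.23, adjusted p = 0.0420). Of 68 tested xenobiotic metabolism genes 2 rose and 1 fell, against 0.147% and 0.317% of all genes. Positive values were seen for 51, with a median of 0.33. In 26 of the 68 all BP arrays lay above all Rag1 arrays, against 10.0% of all genes, and in 4 all lay below, against 13.1%. The median was 0.29, 0.64 and 0.40 on BP replicates 1, 2 and 3 and 0.25 to 0.35 in wild type. With the wild type arrays in the fit, 10 of the 68 were called higher and 2 lower, against 1.1% and 2.17% of all genes. Cyp3a11, a main drug-metabolizing cytochrome, and Adh1, an alcohol and retinol dehydrogenase, were picked with their values in view. Cyp3a11 read 187 to 681 in Rag1 and 977 to 2600 in BP (1.96 ± 0.48, adjusted p = 0.0966). Adh1 read 530 to 1280 and 2590 to 3200 (1.62 ± 0.31, adjusted p = 0.0577).

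The retinol dehydrogenases Rdh7 and Rdh16f2 rose. Rdh7 read 525, 535 and 384 in Rag1 and 1250, 1560 and 1420 in BP, a difference of 1.53 ± 0.21 (adjusted p = 0.0293), and the wild type arrays were at the BP level, 1220 to 1350. Rdh16f2 read 8.92 to 27.5 and 107 to 140, a difference of 2.03 ± 0.29 (adjusted p = 0.0298). Its wild type arrays read 72, 17.4 and 80.4. Over 9 arrays with the actin ratio as a covariate it did not pass (1.60, adjusted p = 0.0655). Rdh7 and Rdh16f2 were 2 of 27 tested retinoid genes, against 0.147% of all genes called higher. None of the 27 fell, and the list's median was 0.17. Tm4sf4, a tetraspanin-like membrane protein of the intestinal and hepatic epithelium, read 349, 213 and 375 in Rag1 and 1750, 2090 and 2280 in BP and rose by 2.68 ± 0.25 (adjusted p = 0.0122). Dbp, an output factor of the circadian clock, read 52.1 to 97.6 and 247 to 1120 and rose by 2.85 ± 0.49 (adjusted p = 0.0474), with wild type at 492 to 869. The hours of collection are not given in the sources used here. Dbp was the 1 member called among 20 tested clock genes, against 0.147% of all genes called higher. The median of the clock list was -0.001. Of 36 fatty acid oxidation and ketogenesis genes none rose and 1, Cpt1a, fell, against 0.147% and 0.317% of all genes. The median of the list was 0.20. Cpt1a, which admits fatty acids to mitochondria, fell (-1.30 ± 0.21, adjusted p = 0.0407) on its brightest probe set; its 2 dimmer tested probe sets had the opposite sign, and the mean of the 3 was 0.010.

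The largest fall was that of a Ctnnb1 probe set; Ctnnb1 encodes beta-catenin, which serves both cell junctions and Wnt signalling. It read 1060, 844 and 692 in Rag1, 21.5, 106 and 21.8 on BP replicates 1, 2 and 3, and 122, 862 and 82.1 on wild type replicates 1, 2 and 3, and it fell by 3.97 (SE 0.45, adjusted p = 0.02). The brightest Ctnnb1 probe set differed by -0.03 (adjusted p = 0.950), and the other had -2.41 (adjusted p = 0.0711). Wild type replicate 2, whose actin ratio was that of the Rag1 arrays, thus read like Rag1, and replicates 1 and 3, with higher ratios, read lower. Over the 150 lower probe sets, wild type replicates 1 and 3 were both below wild type replicate 2 in 136 (90.7%), against 34.6% of all tested probe sets. Over the 33 higher probe sets they were both above it in 21 (63.6%), against 35.9%. Set against the Rag1 mean, the lower set had medians of -1.71, -1.60 and -1.81 on BP replicates 1, 2 and 3 and -0.82, -0.045 and -0.87 on wild type replicates 1, 2 and 3. All 3 BP arrays lay below all Rag1 arrays in each of the 150, so a low median on every BP array comes with the choice of these probe sets. The part of shortened RNA in these calls was not tested.

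**Figure D2:**
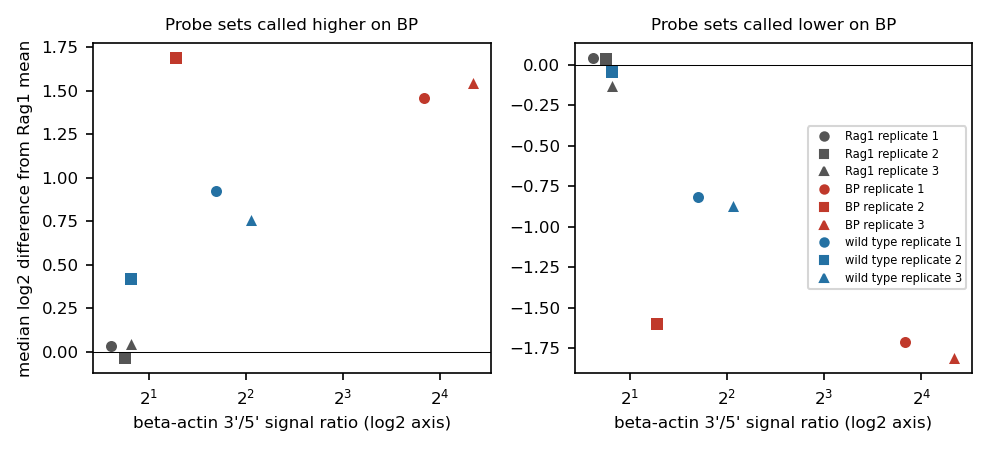
Median log2 difference from the Rag1 mean, over the 33 higher and the 150 lower probe sets, on each array against that array's beta-actin 3' to 5' signal ratio (log2 axis). Wild type replicates 1 and 3 (ratios 3.25 and 4.17) lie between Rag1 and BP, wild type replicate 2 (1.76) lies by Rag1 in the lower set at -0.045. All BP arrays lie beyond Rag1, as the choice of these probe sets requires.

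Probe sets of the same gene often gave different values. Of the 150 lower probe sets, 43 were the brightest tested probe set of their gene, 14 had no single gene symbol, and 93 were dimmer ones. For those 93 the median difference was -1.85, while the brightest probe set of the same gene had a median of -0.26, was negative for 67 and was called for 1, namely Cnnm4. Of the 20 genes called lower on the brightest probe set that had others tested, all others had the same sign in 8 and at least 1 went the opposite way in 12; the share with all of the same sign was 39.7% over all tested genes with several probe sets. Pigr, which carries IgA across the epithelium, showed this split. Its dimmer probe set read 4120, 4840 and 3310 in Rag1 and 916, 1450 and 1290 in BP and fell by 1.74 (SE 0.22, adjusted p = 0.0241). Its brighter probe set read 5350 to 6820 and 4510 to 5620, with a difference of -0.26 ± 0.14 (adjusted p = 0.414). Muc13, a membrane mucin, fell by 2.10 (SE 0.23, adjusted p = 0.0199) on its dimmer probe set and had -0.92 ± 0.24 (adjusted p = 0.111) on the brighter. For Stom, which encodes the membrane protein stomatin, 3 dimmer probe sets fell (-1.92, -2.02 and -2.12), and the brightest had -1.32 (adjusted p = 0.0527). Among the 33 higher probe sets, 20 were the brightest of their gene, 3 had no single gene symbol and 10 were dimmer ones. Of those 10, Mios had the largest rise, 2.46, and its brightest probe set had -0.04. For the rest the brightest had either sign, as for Psmb3 (-0.57) and Samhd1 (0.39). Of the 20 genes called higher, 5 had other tested probe sets, all of the same sign in 4. Averaged over all tested probe sets of a gene, and adjusted over genes, Dbp (adjusted p = 0.0638), Ceacam1 (0.152) and Fgfr2 (0.153) kept their direction and did not pass. Reg3g had only 1 tested probe set, so its difference stayed at -1.55. In that limma fit over genes its adjusted p was 0.0605.

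**Figure D3:**
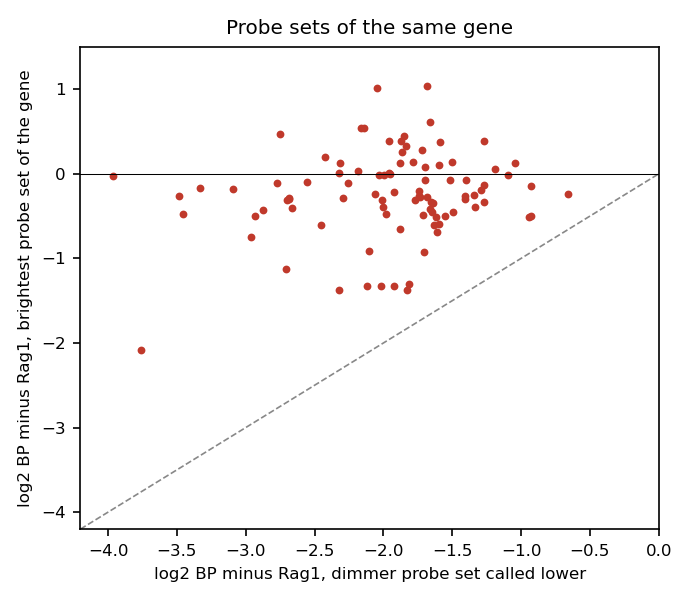
For each of the 93 dimmer probe sets called lower, its log2 difference BP minus Rag1 (horizontal) against that of the brightest tested probe set of the same gene (vertical); the dashed line marks equal values and the solid line 0. All points lie above the dashed line, with medians of -1.85 and -0.26.

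Among the 43 genes called lower on the brightest probe set, wild type replicate 2 was nearer to the BP mean than to the Rag1 mean for 6, namely Tifa, Duoxa2, Reg3g, Pla2g2a, Fgfr2 and Gga2, and nearer to Rag1 for 37. Gga2, a clathrin adaptor of the Golgi, read 79.6 to 137 in Rag1, 18.1 to 21.5 in BP and 30.6 to 53.4 in wild type (-1.78 ± 0.27, adjusted p = 0.0349). Fgfr2, the receptor of epithelial fibroblast growth factors, read 947 to 1290, 238 to 428 and 449 to 557 (-1.65 ± 0.26, adjusted p = 0.0358). Its other tested probe set had the same sign and was not called. Among the 20 higher genes, wild type replicate 2 was nearer to BP for 8, namely Dbp, Mbl2, Rtp4, Rdh7, Oas1a, Irf7, Ces2a and Usp9y, and nearer to Rag1 for 12, Saa3, Ccl8, Wfdc17 and Tm4sf4 among them. These groupings were made after the values were seen and carry no test.

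Genes called lower for which wild type replicate 2 was nearer to the Rag1 mean than to the BP mean are described next, by function. Cnnm4, a magnesium extruder of the basolateral membrane, read 984 to 1720 in Rag1, 200 to 360 in BP and 669, 1440 and 551 in wild type (-2.09 ± 0.29, adjusted p = 0.0293). Trpm7, a channel kinase that admits magnesium, read 156 to 226, 16.9 to 29.9 and 70.4, 210 and 102 (-2.40 ± 0.27, adjusted p = 0.02). With the ferritin heavy chain Fth1, which fell by 0.94 (SE 0.12, adjusted p = 0.0241), they were 3 of 38 tested metal ion transport and storage genes. Over all genes 0.317% were called lower. None of the 38 rose, and the median was -0.24. The other tested Fth1 probe set had 0.07 (adjusted p = 0.905), and that of Trpm7 had -1.28 (adjusted p = 0.349), with BP replicate 2 at 134 and Rag1 at 78.8 to 127. Averaged over probe sets, Fth1 and Trpm7 did not pass (adjusted p = 0.224 and 0.0775). The glycosyltransferases St3gal4, which adds sialic acid, and B3gnt3, which extends mucin-type chains, fell by 1.89 (SE 0.26) and 1.91 (SE 0.27), each with an adjusted p of 0.0293. These were the 2 called of 41 tested, against 0.317% of all genes called lower, and the median of the list was -0.019. Ceacam1, an adhesion molecule of the epithelial surface, read 5390 to 6250 in Rag1 and 1140 to 2560 in BP and fell by 1.67 (SE 0.26, adjusted p = 0.0358). Its other 6 tested probe sets had negative differences, and none was called. On some of the 6, BP replicate 2 lay above every Rag1 array, at 2520, 1950 and 116 (Rag1 1650 to 1800, 804 to 869 and 67.8 to 92). On the rest it lay below every Rag1 array, at 1350, 1440 and 254. BP replicates 1 and 3 lay below every Rag1 array on all 6.

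Myh11, the smooth muscle myosin heavy chain, read 2050 to 2240 in Rag1, 747, 1000 and 551 in BP and 1350, 2110 and 1130 in wild type, and fell by 1.51 (SE 0.23, adjusted p = 0.0347). Its other tested probe set had the opposite sign. Tpm1, a tropomyosin, fell by 1.14 (SE 0.15, adjusted p = 0.0241) on its brightest probe set; its other tested probe sets had -2.59 (adjusted p = 0.0968) and 0.72 (adjusted p = 0.200). Averaged over probe sets, neither Myh11 nor Tpm1 passed (adjusted p = 0.170 and 0.159). They were the 2 members called on the brightest probe set among 34 tested smooth muscle and stroma genes, against 0.317% of all genes called lower. The median of the list was -0.11. The summed intensity of the 4 smooth muscle markers was 7560 to 8980 in Rag1 and 6540, 8920 and 6460 in BP. Enterocyte markers summed to 31200 to 38200 and 36900 to 40600, goblet cell markers to 15400 to 18500 and 13900 to 14000, Paneth cell markers to 11900 to 13200 and 10900 to 13200, and macrophage markers to 1350 to 1560 and 2040 to 2500. Of the marker sets, Myh11 was the 1 marker called on its brightest probe set.

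Globin and sex-linked probe sets differed between arrays as well. Hbb-b2, a beta globin, read 245, 68.4 and 141 in Rag1 and 1030, 677 and 1010 in BP and rose by 2.59 ± 0.40 (adjusted p = 0.0349). The probe set of Hba-a2, an alpha globin, fell by 2.48 (SE 0.43, adjusted p = 0.0475), with 282 to 463 in Rag1 and 28.4 to 124 in BP. Globin genes have near-identical copies, so these probe sets cannot be tied firmly to 1 gene each. Xist, the RNA that silences 1 X chromosome in females, read 6.69 to 22.6 in Rag1 and 41.6, 518 and 1950 on BP replicates 1, 2 and 3, with 1090 to 1510 in wild type (3.60 ± 1.04, adjusted p = 0.141). The Y-linked Kdm5d read 63.2 to 76.4 and 50.4, 4.80 and 9.91, with 3.27 to 13.0 in wild type (-1.39 ± 0.42, adjusted p = 0.155). Usp9y, also assigned to the Y chromosome, went against this order, with 18.6 to 33.4 in Rag1, 92.5 to 129 in BP and 55.0 to 73.4 in wild type (1.57 ± 0.27, adjusted p = 0.0474). BP replicate 1 was the BP array nearest to Rag1 in Xist and Kdm5d, and also in Reg3g (6270), Reg3b (9700), Dbp (247) and Hba-a2 (124). These genes were picked with their values in view. For others BP replicate 2 was nearest, as for Ccl8 (282) and Myh11 (1000). The part of sex in the differences was not tested. The Rag1 gene itself was dim, at 2.16 to 2.90 in Rag1 and 2.05 to 23.6 in BP, and gave no check of the labels.

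Gene lists were described by their medians. Among lists with at least 10 tested genes they ran from -0.35 for antigen presentation to 0.33 for xenobiotic metabolism. BP replicate 2 often departed from the other BP arrays: for cell cycle and DNA replication genes it had a median of -0.44, against -0.012 and 0.011 on BP replicates 1 and 3, and for cholesterol synthesis genes -0.30, against 0.15 and 0.17. Its median over all tested genes was -0.12, against 0.050 and 0.040. Goblet cell and mucus genes had negative medians on every BP array, at -0.19, -0.43 and -0.21. In 9 of 22 all BP arrays lay below all Rag1 arrays and in 1 all lay above, against 13.1% and 10.0% of all genes. None of the 22 was called on its brightest probe set. Immediate early genes had medians of -0.20, -0.31 and -0.41. In 10 of 32 all BP arrays lay below all Rag1 arrays and in 3 all lay above, against 13.1% and 10.0%. None was called on its brightest probe set, against 0.147% of all genes called higher and 0.317% called lower.

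**Figure D4:**
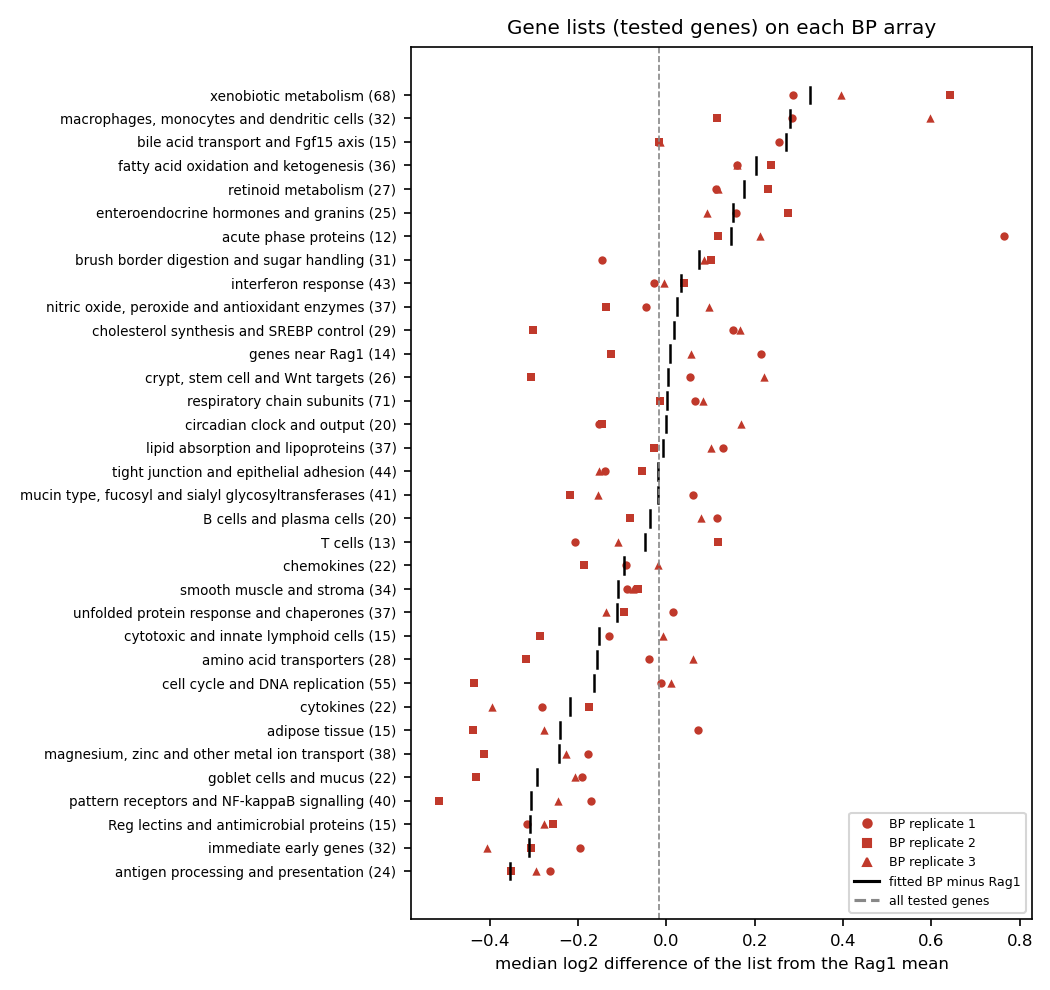
Median log2 difference from the Rag1 mean of each gene list with at least 10 tested genes (number tested in parentheses), on BP replicates 1, 2 and 3 (red points), with the median of the fitted differences (black bar) and that of all tested genes (dashed line, -0.016). Xenobiotic metabolism lies highest at 0.33 and antigen presentation lowest at -0.35.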

How the data were processed

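The deposited values were linear intensities of 45101 Affymetrix probe sets on 9 arrays; biotin-labelled cRNA came from 20 ug of total RNA, per the labels' protocols. The software that made them, and any scaling, are not given in the sources used here. Values were turned to log2(value + 16) and quantile-normalized over 9 arrays; printed normalised intensities are these values turned back to the linear scale. The 64 control probe sets and the dimmest 40% by mean over 9 arrays (under 23.5) were left out, which kept 27022. By the platform annotation, 34945 probe sets name 1 gene, 932 several and 9160 none.

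BP minus Rag1 was tested with limma 3.58.1 in R 4.3.3 on 6 arrays (4 residual degrees of freedom, empirical Bayes with an intensity trend, two-sided, threshold 0.05). The wild type arrays, whose spread was smaller than that of BP, were left out of the fit. Fold changes on this scale understate those of dim genes, and 3 arrays a group limit the precision.

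Named genes were the 15 largest called differences per direction without overlap (no clones or predicted genes), at most 8 called members per list (if none, the 2 lowest p), and a fixed set with Saa1, Saa2, Saa3, Tifa, Reg3g, Reg3b, Pigr, Nos2 and sex-linked genes; not all are printed. Dimmer probe sets, Cd74, Cyp3a11, Adh1, Adgre1 and Gsr were chosen after their values were seen. The comparison, lists and alternatives were chosen with earlier results of these data known. The same numbers in both groups do not mark pairs: deviations of same-numbered arrays correlated at -0.121, -0.185 and -0.031. The fit was tested on simulated data. The alternatives changed the normalization, pseudocount, filter, moderation, weights, arrays, probe set rule and thresholds, and added the actin ratio as a covariate.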

Additional observations from a re-analysis of the deposited data

Results flagged for a closer look

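The Dap control probe set, outside the gene comparisons, read 1019 in deposited intensity on BP replicate 2 and at most 19.1 on the other 8 arrays. It was picked out because it is a control signal well above the level in Rag1.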

How the results depend on the processing

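The counts of 33 higher and 150 lower probe sets moved with most choices, while no named call changed direction except Cpt1a, at 0.010 with the mean of all probe sets of a gene. Adding the wild type arrays to the fit gave 298 and 729, which held all 33 and 144 of the 150. The values as deposited gave 5 and 20, centring on the median 37 and 319, no intensity trend 4 and 23, and array weights 1310 and 2398. Leaving out the lowest 60% gave 63 higher, the pseudocount 1 gave 96 lower, and a threshold of 0.01 gave 1 and 0 in limma. The actin ratio as a covariate gave 2096 and 2715, and 1815 and 2376 over 9 arrays, an alternative chosen after seeing the data; of the reported probe sets 30 and 113 were called there, and all 33 and 150 kept their sign. Without BP replicates 1 and 3 there were 2688 and 3571, and without BP replicates 2 and 3 there were 1175 and 2430; the lone BP array was assumed to vary like the Rag1 arrays. With single arrays left out the counts ran from 0 to 2064 higher and from 0 to 2817 lower. The replicate block gave 0 and 0 in limma (1199 and 2216 at an unadjusted p under 0.05), and the samples share only a number. Other causes were not tested. With the mean of all probe sets of a gene, 19 genes were higher and 48 lower, and 16 and 23 of these were among the reported 20 and 43. Of 38 list medians, 20 moved by more than the spread of the BP arrays over 9 arrays with the actin ratio, and 12 with median centring.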

Other observations

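Several gene groups of the tissue had no called member on the brightest probe set. Of 25 tested enteroendocrine hormone and granin genes, 18 were positive, and the list's median was 0.15. Cck, the hormone cholecystokinin, read 59.4 to 71.9 in Rag1 and 112 to 156 in BP (0.83 ± 0.25, adjusted p = 0.154 in limma), and Chgb, a granin, read 279 to 383 and 506 to 580 (0.67 ± 0.22, adjusted p = 0.176). Of 55 cell cycle genes, 38 had negative values; Ube2c, a mitotic ubiquitin-conjugating enzyme, read 415 to 505 and 208 to 281 (-0.89 ± 0.22, adjusted p = 0.105). Axin2, a target of Wnt signalling in crypts, read 595 to 729 in Rag1, 207 to 371 in BP and 296 to 355 in wild type (-1.12 ± 0.26, adjusted p = 0.0846). Lpl, lipoprotein lipase, read 147 to 171, 58.4 to 75.9 and 73.4 to 99.4 (-1.05 ± 0.24, adjusted p = 0.0833). Pck1, the gluconeogenic enzyme, read 249 to 373, 545 to 1300 and 1320 to 1520 (1.54 ± 0.35, adjusted p = 0.0800). On the brightest probe sets of these last 3 genes, the ones given, every BP and wild type array lay on the same side of every Rag1 array. The other tested probe sets of Axin2, Lpl and Pck1 had -0.12, -1.35 and 0.315 (adjusted p = 0.908, 0.089 and 0.838). None of those had all BP and wild type arrays on 1 side of Rag1.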
